A study of Sus scrofa with 50 samples.

Results

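Kidney was set against heart, liver, lung and spleen of Korean minipigs, with 9 kidney libraries out of the 50 libraries of the study. The 10 animals gave 1 library of each tissue. Of the ET type were S0326, S0309, S0276, S0242 and S0235, and of the L type S0385, S0384, S0377, S0355 and S0349; the labels name the types and the tissues, and the sources used here give no age, sex, treatment or part of the kidney sampled. All kidney libraries were taken except that of ET-type S0235, which left 4 ET-type and 5 L-type kidneys, and they were compared with all 40 libraries of the other 4 tissues. Messenger RNA was sequenced as stranded libraries, and the deposited values are TPM (a length-scaled share of all transcripts, with a fixed total per library). A gene below is a Swiss-Prot entry, named by its short entry name, with the TPM of all assembled transcripts that match it best summed.

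The kidney filters blood in the glomerulus, whose podocytes form a slit membrane, and then recovers most of the filtrate in the tubule. The proximal tubule takes back protein, sugar, phosphate and amino acids, secretes organic acids and bases, and makes glucose. The thick ascending limb and the distal convoluted tubule reabsorb salt without water, and the collecting duct sets the final water, salt and acid content through its principal and intercalated cells. These are whole-tissue values, in which fewer cells of a type and less RNA per cell cannot be told apart.

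The left-out library of S0235 went against its label. Its 10 measured thick ascending limb genes summed to 2.19 TPM, where the other 9 kidneys had 437.5 to 6146 TPM. Its T and NK lymphocyte genes summed to 3927 TPM against 22.99 to 140.7 TPM, and its B lymphocyte genes to 1899 against 26.49 to 986.9 TPM. Of the 5 genes given as kidney markers, AADAT, S6A18, UROM, KLK and S22AC, each had a level in all 9 kidneys above that in all 40 other libraries. They were picked from earlier results of these data, so this describes the libraries and tests nothing.

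More genes were detected in kidney than in heart, liver or spleen, and fewer than in lung. Kidney had 25071 ± 1339 genes at 1 TPM or more (SD, n = 9), heart 20087 ± 1325, liver 20099 ± 1103, lung 27618 ± 766.9 and spleen 22555 ± 2328 (n = 10 each). Within animals the kidney count was higher in 9 of 9 pairs with heart, liver and spleen and in 0 of 9 with lung. Each of these comparisons had p = 0.00391 by an exact 2-sided paired permutation test, the smallest p that 9 pairs allow, and 0.00446 adjusted over 8 tests.

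A gene was called when limma gave an adjusted p below 0.05 over all 32855 genes tested and the difference in log2(TPM + 1) was at least 1. By that rule 1689 genes were higher in kidney than in each of the 4 other tissues, 5.14% of those tested, and 55 were lower than in each, 0.167%. Among the 14105 genes with a Swiss-Prot entry, 476 were higher than in each tissue (3.37%) and 40 lower (0.284%). With the library of S0235 kept, 1376 genes were higher and 37 lower. Of the 476, 272 had all 9 kidneys above all 40 other libraries, as had 277 of all entries tested, or 1.96%. The 476 entries made up 4.32% to 9.31% of the TPM of a kidney (median 5.66%), and medians of 0.294% in heart, 0.446% in liver, 0.501% in lung and 0.365% in spleen.

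The 4 contrasts were unlike each other. Among entries, 29% were called higher and 8.54% lower in kidney than in heart, 27.5% and 9.29% against liver, 8.47% and 27% against lung, and 15.9% and 15.7% against spleen. The median gene of all those tested lay 0.497 higher in kidney than in heart on the log2 scale, 0.472 higher than in liver, 0.157 higher than in spleen and 0.377 lower than in lung (-0.377), so a single gene is to be read against that shift. The share of higher among all called genes was 82.7% against heart, 78.3% against liver, 29.5% against lung and 64.8% against spleen. It moved with scaling, to 61.1%, 59.8%, 51.7% and 60.8% with median-ratio rescaling and to 50.9%, 54.0%, 50.1% and 51.2% with quantile scaling; without the mitochondrial and the 10 highest genes it was 79.3%, 82.3%, 46.6% and 72.4%. For the 476 entries the nearest tissue, that with the smallest difference, was lung in 222, liver and spleen in 98 each and heart in 58.

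**Figure D1:**
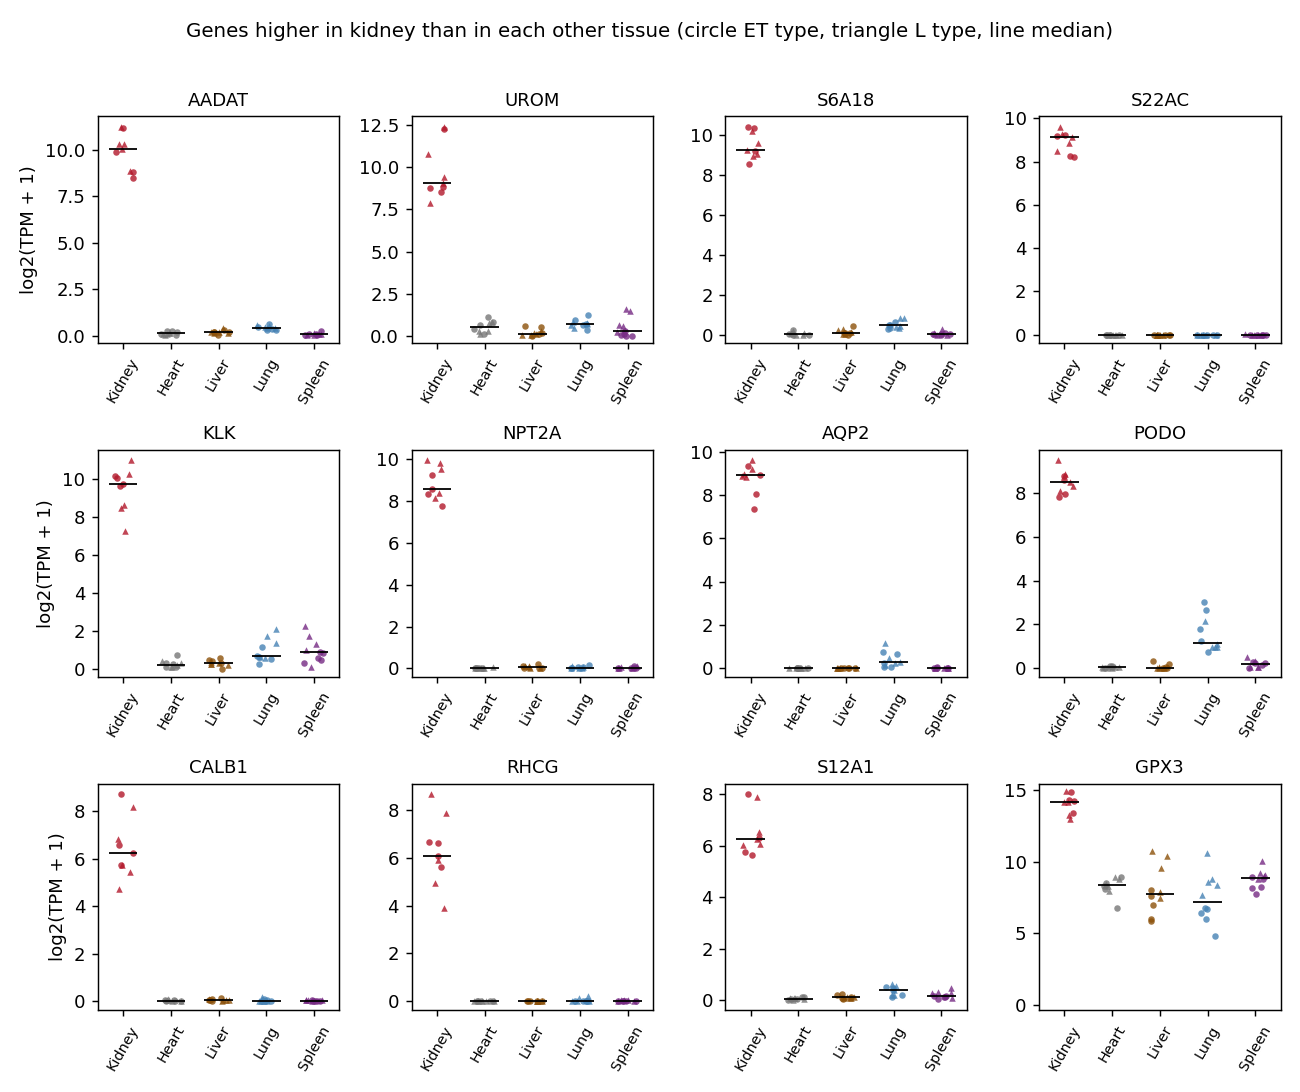
Level of 12 genes that were higher in kidney than in each other tissue, in log2(TPM + 1), with 1 point per library (9 kidneys, 10 libraries of each other tissue), circles for ET type, triangles for L type and a line at the median. The kidneys lie above all 40 other libraries in all 12 panels, and the gap is narrowest for GPX3, whose other tissues reach 1734 TPM.

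Genes of the proximal tubule, the thick ascending limb and the connecting tubule stood at the top of the kidney list. AADAT, an aminotransferase of kynurenine and lysine breakdown, had 360.2 to 2423 TPM in the kidneys (median 1060) and at most 0.5267 TPM in any other library. Its smallest difference was 9.45 ± 0.20 (SE) against lung. UROM, uromodulin, the main protein of normal urine and a product of the thick ascending limb, had 229.6 to 5281 TPM (median 539.5) and at most 2.134 TPM elsewhere; its difference from heart was 9.19 ± 0.35. No kidney overlapped any other tissue for either gene. S6A18, a neutral amino acid transporter of the brush border, had 365.8 to 1346 TPM against at most 0.8419 (8.95 ± 0.16). Its 3 transcripts match at 73.295% to 78.571% identity, and that with the most TPM in kidney matches 176 residues, so its name is less sure. S22AC, the urate exchanger URAT1, had 296.6 to 782.4 TPM and was listed at 0 in 39 other libraries and at 0.0152 TPM in 1 spleen. Its 5 transcripts match over at most 167 residues, at 73.62% to 85.393% identity, so its name is less sure. The transcript with the most TPM in kidney (mean 335.696) matches 89 residues. KLK, a glandular kallikrein of the connecting tubule that cuts kininogen, had 149.9 to 1985 TPM (median 847.2) against at most 3.885 (8.45 ± 0.29). Its entry may pool related kallikreins. NPT2A, the main sodium-phosphate cotransporter of the proximal tubule, had 215.9 to 985.3 TPM (median 382) against at most 0.168 TPM.

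These genes lie apart in the genome, by the RefSeq annotation of the build Sscrofa11.1 for the pig genes of the same name. AADAT is on chromosome 14 (19768816 to 19792254), UMOD, the gene of UROM, on chromosome 3 (25473048 to 25492286), SLC22A12, that of S22AC, on chromosome 2 (7557822 to 7565801), and KLK1 on chromosome 6 (55570632 to 55576398). The assembled transcripts carry no position of their own. Some kidney genes were close neighbours. SLC6A18 (chromosome 16, 79278126 to 79292463) lies 1476 bases from SLC6A19 (79293940 to 79310922), with no coding gene between them, and both were higher in kidney than in each tissue. SLC34A1, the gene of NPT2A (chromosome 2, 80548208 to 80563380), lies 1683 bases from PFN3 (80545495 to 80546524), whose entry PROF3, an actin-binding profilin known from testis, had 94.56 to 337.3 TPM in kidney against at most 1.148 TPM elsewhere (6.84 ± 0.17 against lung). PROF3 rests on 1 transcript of 2946 bases, and its match covers 137 residues at 96.35% identity. That transcript is longer than the annotated span of PFN3, so its TPM may not measure that gene.

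In the glomerulus, 5 of 11 measured podocyte and basement membrane genes were higher in kidney than in each tissue, as were 3.37% of all entries. This list and those below were drawn up with earlier results of these data known, so their counts are no independent test. PODO, podocin of the slit membrane, had 227.8 to 730.2 TPM (median 367.4) in kidney and 0.6665 to 7.196 TPM in lung, its nearest tissue (6.97 ± 0.20). NPHN, nephrin, the slit membrane protein itself, had 8.319 to 32.3 TPM against at most 1.204, and PTPRO, a podocyte phosphatase, 7.424 to 20.98 against at most 2.674. The collagen IV chains of the glomerular basement membrane, CO4A3 and CO4A4, were also higher, but by 1.19 ± 0.27 and 1.39 ± 0.27 against lung, where they reached 36.49 and 21.57 TPM; for CO4A3 the call ended with the library of S0235 kept (0.789). Other podocyte genes were shared with other organs. WT1, a transcription factor of podocytes, had 11.67 to 37.57 TPM in kidney and 20.67 to 43.75 in spleen (-0.29, not called). KIRR1 (-1.88), TRPC6 (-2.54) and TCF21 (-1.22) were lower in kidney than in spleen, and SYNPO, an actin-linked podocyte protein, was lower than in heart (-2.48) and lung (-2.34). PODXL, a sialoprotein of podocytes and endothelium, did not pass against heart or lung.

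Protein uptake and brush border enzymes of the proximal tubule were the most complete of the proximal lists. Of 16 genes, 13 were higher than in each tissue, as were 3.37% of all entries. CUBN, LRP2 and AMNLS, of the receptor complex for filtered protein, were each higher than in each tissue. CUBN (cubilin) had 10.54 to 34.95 TPM in kidney, LRP2 (megalin) 91.43 to 263.8 and AMNLS (amnionless, which brings cubilin to the membrane) 116 to 322.4. For CUBN the ET-type kidneys had 10.54 to 17.24 TPM and the L-type kidneys 20.79 to 34.95, not called between the types (limma adjusted p = 0.573). AMNLS was at most 0.6676 TPM in the other libraries and CUBN at most 1.147, while LRP2 reached 21.29 TPM in 1 lung. CLCN5, the chloride-proton exchanger of their endosomes, differed by at least 2.16 ± 0.19. Peptidases followed: DPEP1, a dipeptidase, had 84.8 to 776.2 TPM with at most 7.536 elsewhere, GGT1, which splits glutathione, 84.42 to 315.5 against at most 12.85, and AMPE, which removes the first residue of angiotensin II, 52.59 to 460 against at most 17.3. Of the 3 that did not pass, AMPN was level with lung (0.17 ± 0.17), DPP4 was lower than in liver (-1.54) and DAB2 was 0.91 above lung.

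Among carriers of sugar, phosphate and sulphate, 10 of 16 passed against all tissues, as did 3.37% of all entries. SC5A2, the glucose carrier SGLT2 of the early proximal tubule, had 46.03 to 234.9 TPM in kidney and at most 16.12 TPM in any other library. SC5A1, SGLT1 of the later segment, was at 0 to 0.8432 TPM in the kidneys and did not differ by the test from any tissue. Phosphate carriers were led by NPT2A, with NPT2C at 37.72 to 183.7 TPM against at most 18.61. SC5AC, a lactate carrier, had 13.46 to 192.8 TPM against at most 0.2044, and S13A3, a dicarboxylate carrier, 21.15 to 91.96 against at most 3.418. Liver shared several of them. GTR2, the glucose outlet of liver and tubule, was 4.02 lower than in liver (-4.02 ± 0.17) and higher than in the other 3 tissues, S26A1 was lower than in liver (-1.34), and NPT1 and NPT4 did not pass against it. AQP1, the proximal water channel, had 22.87 to 272.5 TPM, was higher than in liver only and lower than in heart (-1.11 ± 0.43), a call that ended without S0276 (-0.988), S0309 (-0.947), S0326 (-0.943) or S0355 (-0.915).

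Amino acid carriers had 5 of 11 genes higher than in each tissue, where 3.37% of all entries were. S7A13, a carrier of the straight proximal tubule, had 63.15 to 820.8 TPM in the kidneys and was listed at 0 in all 40 other libraries; its match has 54.506% identity, so its name is less sure. S6A19, the main neutral amino acid carrier, had 3.833 to 93.85 TPM and was listed at 0 in 39 of the others. BAT1 and SLC31, the light and heavy chain of the cystine carrier, stood together, with 15.6 to 54.35 and 13.74 to 220.9 TPM and smallest differences of 2.24 ± 0.18 and 3.37 ± 0.27, both against liver. EAA3 (-1.56) and S38A3 (-2.12) were lower than in liver, and YLAT1 passed against none.

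Carriers of organic ions and urate had 5 of 10 genes higher than in each tissue, where 3.37% of all entries were. S22A6 and S22A8, the organic anion carriers OAT1 and OAT3, had 3.548 to 101.7 and 54.63 to 288.4 TPM against at most 0.1146 and 0.2171. Their genes lie 8548 bases apart on chromosome 2, SLC22A8 at 8782030 to 8800998 and SLC22A6 at 8809547 to 8817124. S22A2, the organic cation carrier OCT2, had 37.6 to 302.5 TPM against at most 3.903, and S47A1, the cation exporter MATE1, 48.78 to 138.3 against at most 30.62, in heart. S22A7, another anion carrier, belonged to liver, with 138.5 to 857.5 TPM there and 0 to 0.8463 TPM in kidney. MRP2, an export pump, was lower than in liver (-2.45) and higher than in the other 3.

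Proximal tubule metabolism was largely shared with liver. Of 25 genes, 24 were higher in kidney than in heart, in lung and in spleen, where 29%, 8.47% and 15.9% of all entries were. Against liver 7 were higher, near the share of all entries (27.5%), and 10 were lower, where 9.29% of entries were. Of the 25 genes, 6 passed against all 4 tissues, as did 3.37% of all entries. That count was 3 with the library of S0235 kept, and 4 to 7 with 1 animal left out. The 6 were AADAT, MIOX, HAOX2, OXDA, DDC and ACS2A. Against liver, OXDA and DDC lay at the limit of the call: it ended with median-ratio rescaling (0.41 and 0.409) and with the library of S0235 kept (0.335 and 0.446), for OXDA without any of S0242, S0349, S0355, S0377, S0384 and S0385 (0.915 to 0.997), and for DDC without S0242, S0276, S0377 or S0384 (0.752 to 1.0). MIOX, which opens myo-inositol, had 239 to 790.6 TPM with at most 30.13 in liver (5.10 ± 0.29). HAOX2, a hydroxy acid oxidase, had 228.4 to 747.5 TPM against 64.35 to 263.5 in liver (1.64 ± 0.20), or 0.87 with the library of S0235 kept, which ended the call. Enzymes of glucose formation were shared. PCKGC, which commits oxaloacetate to glucose, had 344.1 to 2203 TPM in kidney and 188.2 to 1688 in liver (0.23 ± 0.27). F16P1 did not pass against liver (-0.63), and G6PC1, the last step, was lower (-2.87 ± 0.30). Breakdown of tyrosine and phenylalanine was lower than in liver through PH4H (-3.39) and HPPD (-2.61). BHMT1, which uses betaine, and GATM, which makes the creatine precursor, were also lower than in liver (-3.23 and -1.25); the call of GATM ended without S0276 (-0.99).

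The thick ascending limb had 6 of 10 genes higher than in each tissue, where 3.37% of all entries were. S12A1, the loop diuretic target NKCC2, had 48.11 to 256.2 TPM (median 75.06) in kidney and at most 0.5369 elsewhere (6.12 ± 0.18 against lung). KCNJ1, the potassium channel ROMK that returns potassium to the lumen, had 23.11 to 163.3 TPM against at most 0.15. CLCKA, a chloride exit channel, had 10.14 to 135.5 against at most 3.185, EGF, whose precursor the limb makes, 9.69 to 74.28 against at most 0.8907, and CLD19, a tight junction claudin, 7.605 to 45.52 against at most 1.708. CLD10 was level with spleen (0.50 ± 0.42), CLD14 was a liver gene here (-5.56), and PE2R3 was lower than in heart (-1.24). CLD16, CLCKB, BSND and CASR had no matched entry and were not analysed here.

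In the distal convoluted and connecting tubule 6 of 11 genes were higher than in each tissue, as were 3.37% of all entries. CALB1, a calcium buffer, had 25.54 to 427.2 TPM in kidney against at most 0.1263 elsewhere, and PRVA, parvalbumin, 2.444 to 45.63 against at most 0.2148. ATNG, the gamma subunit of the sodium pump, was among the most abundant, with 1445 to 5509 TPM (median 3160) against 9.498 to 198.1 in lung (5.70 ± 0.47). TRPM6, a magnesium channel, differed by 1.25 ± 0.23 from lung, and WNK4, a kinase that sets salt transport, by 1.26 ± 0.25. The call ended for TRPM6 with quantile scaling (0.948) and for WNK4 with the library of S0235 kept (0.928). S12A3, the thiazide target of this segment, was not called against heart, liver or lung as summed. It rests on 3 transcripts. One of them, which matches 27 residues of 92.593% identity, had mean TPM of 417.709 in kidney, 312.017 in heart, 541.395 in liver, 424.669 in lung and 76.525 in spleen. Another, matching 1021 residues, had 179.685 TPM in kidney and at most 0.031 in the other tissues, and the last had 108.725 against at most 0.108. NAC1, a sodium-calcium exchanger, was lower than in heart (-2.06).

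Principal cells of the collecting duct had 5 of 10 genes higher than in each tissue, where 3.37% of all entries were. Lung was the organ that shared the others. AQP2, the water channel under vasopressin, had 160.9 to 771.7 TPM (median 481.5) and at most 1.238 TPM elsewhere (8.37 ± 0.16 against lung). V2R, the vasopressin receptor of these cells, had 8.123 to 26.28 against at most 3.084, and FXYD4, a sodium pump regulator, 10.08 to 94.77 against at most 1.696. The sodium channel ENaC was shared. SCNNA was lower than in lung (-1.21 ± 0.21), SCNNB did not pass against it (-0.92) and SCNNG was level with it (0.05 ± 0.19), while all 3 were higher than in heart, liver and spleen. AQP3, the exit channel for water, had 28.83 to 274.9 TPM, was lower than in lung (-1.35) and did not pass against spleen. The lower calls of SCNNA and AQP3 against lung ended with median-ratio rescaling (-0.667 and -0.802) and without the mitochondrial and 10 highest genes (-0.771 and -0.905). AQP4 was a lung gene here, with 89.34 to 189.2 TPM there and at most 0.1539 in kidney.

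Intercalated cells gave the only list in which every measured gene, 11 of 11, was higher in kidney than in each tissue. Of all entries, 3.37% were. The count was 11 with each scaling and with the library of S0235 kept. Proton pump subunits of this cell type were VATB1 at 61.28 to 241.7 TPM, VPP4 at 31.25 to 151.4, VATG3 at 96.61 to 293.1, VA0D2 at 15.54 to 68.61 and VATC2 at 22.72 to 98.34. VATB1 overlapped lung, which reached 62.55 TPM (1.84 ± 0.25). FOXI1, the transcription factor of these cells, had 17.4 to 142.3 against at most 2.748 TPM, and B3A4, a bicarbonate exchanger, 30.5 to 203.4 against at most 2.241. The ammonia channels RHCG and RHBG had 13.81 to 413 and 17.13 to 194 TPM; RHCG was at most 0.1402 elsewhere, and RHBG reached 59.92 TPM in 1 liver. AQP6, an intracellular channel of these cells, had 36.82 to 121.9 against at most 18.93 TPM. Its gene (chromosome 5, 15888080 to 15892113) lies 19514 bases from AQP2 (15862739 to 15868565), with 1 coding gene, AQP5, between them. AQP5 had a median of 0.9996 TPM in kidney and was lower than in lung (-4.54).

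Renal hormones and receptors had 5 of 13 genes higher than in each tissue, where 3.37% of all entries were. RENI, renin, had 2.303 to 25.87 TPM and at most 0.1304 elsewhere. KLOT, the FGF23 co-receptor klotho, had 11.92 to 64.82 against at most 4.758, and PTH1R, the receptor of parathyroid hormone, 153.4 to 526.1 against at most 54.26. Of vitamin D, the receptor VDR had 32.82 to 123.9 against at most 12.24 and CP24A, which inactivates the hormone, 6.23 to 26.39 against at most 0.7149. CP27B, which makes the active form, had 1.031 to 8.618 TPM and did not pass against liver (0.96) or lung (0.30). AGTR1, the main angiotensin II receptor, was lower than in spleen (-1.39) and MCR, the receptor of aldosterone, passed against none.

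Transcription factors and cadherins of the nephron had 17 of 29 genes higher than in each tissue, where 3.37% of all entries were. No list member was lower than in each. PAX8 had 73.74 to 267.7 TPM in kidney and at most 9.731 elsewhere, and PAX2, which acts with it in the renal lineage, 36.53 to 94.07 with 3.731 to 9.483 in liver and 0 listed in every heart, lung and spleen. HNF4A, of the proximal tubule, was shared with liver, which had 98.19 to 178.8 TPM against 43.96 to 129.9 (-0.54, not called). SALL1 (-0.31) was likewise not called against liver. Of the HOX family, which patterns the body axis, HXA9, HXA10, HXD8, HXD9 and HXD10 were low elsewhere. The other HOX genes of the list are not given here. HXA9 had 37.42 to 60.42 TPM and at most 0.275 in the other libraries, and HXA10 21.21 to 50.96 against at most 0.03161; the first difference was 5.52 ± 0.08 against lung. HXD8 had 29.58 to 96.83 TPM, HXD9 59.25 to 156.1 and HXD10 8.387 to 26.42. Elsewhere their single transcripts averaged at most 0.539 (spleen), 0.804 (spleen) and 0.059 TPM (lung). HOXA10 and HOXA9 lie 1334 bases apart on chromosome 18 (45393525 to 45403259 and 45404594 to 45411512), and HOXD10 and HOXD8 lie 9758 bases apart on chromosome 15. The annotated span of HOXD9 (81910415 to 81926276) covers HOXD10 and reaches into the stretch between that pair. IRX1 (-2.33), IRX2 (-3.12), IRX3 (-1.24) and GRHL2 (-1.93) were lower than in lung, and OSR1 was lower than in lung and spleen. The call of IRX3 ended under each of the 3 other scalings (-0.718, -0.89 and -0.827).

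Over the 12 nephron lists together, 94 of 173 tested genes were higher in kidney than in each tissue and 0 were lower, against 3.37% and 0.284% of all entries. The count higher than each was 92 with median-ratio rescaling, 95 with quantile scaling and 85 with the library of S0235 kept, and 92 to 96 with 1 animal left out. The median differences over these lists were 4.35 against heart, 3.20 against liver, 3.28 against lung and 3.99 against spleen; over all entries tested they were 0.45, 0.45, -0.51 and -0.03. The lists were drawn up with earlier results of these data known, so their counts describe them and are no independent test.

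**Figure D2:**
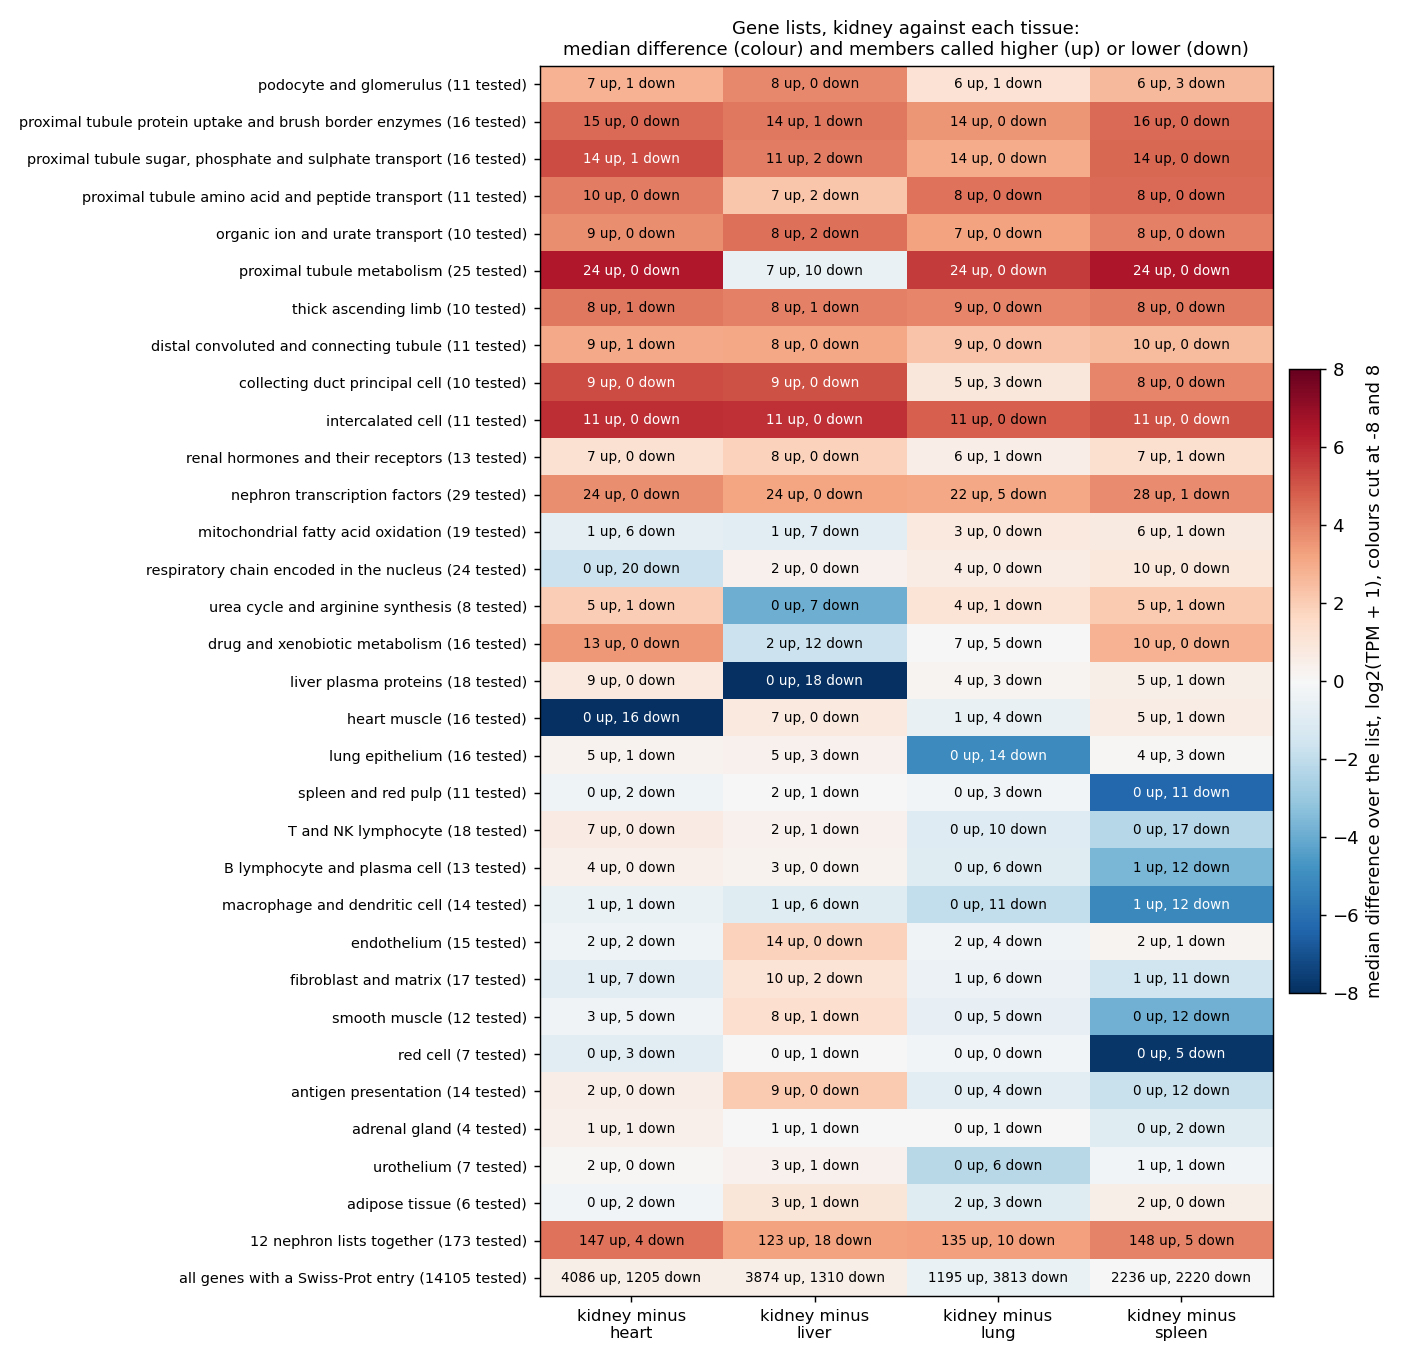
Gene lists (rows) against the 4 other tissues (columns), with colour for the median difference in log2(TPM + 1), kidney minus the other tissue, and text for how many members were called higher (up) or lower (down). Nephron lists are red in most columns, apart from proximal tubule metabolism against liver with 7 up and 10 down, and each marker list of another organ is blue in the column of that organ.

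Kidney genes outside the nephron lists were as far apart. GPX3, the secreted glutathione peroxidase that kidney supplies to plasma, was among the 10 entries with the highest mean TPM in kidney, with 8233 to 31770 TPM (median 18790). In the other tissues it ran from 26.73 TPM in a lung to 1734 TPM in a liver, and the smallest difference was 5.17 ± 0.44 against spleen. TMIG1, an adhesion protein of epithelia, had 120.6 to 494.1 TPM against at most 2.043. FAME had 125.7 to 225.9 against at most 0.8471, and an entry matching beta-defensin 115, DB115, 57.84 to 1261 against at most 12.66, at 59.524% identity. CP4AO, a fatty acid hydroxylase of the P450 family, had 107.9 to 400.6 TPM against at most 39.46 in liver (4.47 ± 0.35). ST2A1, a steroid sulphotransferase, was 10.11 above spleen and 9.97 above heart but 1.12 ± 0.31 above liver, a call that ended with median-ratio rescaling (0.489), with the library of S0235 kept (0.163) and without animal S0235 (0.974), S0242 (0.952) or S0309 (0.956).

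Kidney was a tissue of high mitochondrial RNA, though its libraries spread widely. Mitochondrially encoded transcripts held 12.26% to 45.57% of the TPM of a kidney (mean 28.27 ± 12.04%, n = 9) and means of 37.37 ± 6.194% in heart, 10.03 ± 5.891% in liver, 6.439 ± 3.904% in lung and 3.632 ± 0.7455% in spleen (n = 10 each). Within animals, kidney was higher than liver, lung and spleen in 9 of 9 pairs (exact paired permutation p = 0.00391, adjusted 0.00446). Against heart it was higher in 2 of 9, with a mean difference of -9.465 percentage points (exact p = 0.0547). That exact p was 0.0156 without animal S0355 and stayed above 0.05 without S0385. Of 24 nuclear genes of the respiratory chain, 20 were lower than in heart (median difference -1.71), where 8.54% of entries were. Against liver, lung and spleen 2, 4 and 10 were higher and 0 lower, with medians of 0.37, 0.57 and 0.83, where 27.5%, 8.47% and 15.9% of entries were higher. The lung count was 15 with median-ratio rescaling, and 0 genes were higher than in each tissue. ATPB, a subunit of ATP synthase, had a median of 445.5 TPM in kidney and 2166 in heart (-1.69), and CYC, cytochrome c, 96.26 and 616.6 (-2.24).

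Part of the enzymes of mitochondrial fatty acid oxidation were lower in kidney than in heart or liver. Of 19 enzymes, 6 were lower than in heart and 7 than in liver, where 8.54% and 9.29% of all entries were. Those counts were 11 and 13 with median-ratio rescaling. Against lung 3 were higher and 0 lower, and against spleen 6 were higher and 1 lower. Among all entries, 8.47% were higher and 27% lower than in lung, and 15.9% and 15.7% than in spleen. The count higher than in lung was 13 with median-ratio rescaling and 12 with quantile scaling. Of the 19, 0 were higher than in each tissue, where 3.37% of all entries were, so 19 genes are too few to tell. CPT1A, the liver form of the gatekeeper, was higher than in heart (2.64) and lung (1.46), and CPT1B, the muscle form, was lower than in heart (-3.54) and higher than in liver (2.69).

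Genes of arginine synthesis were expressed in kidney, while CPSM and OTC of the urea cycle were near 0. Of the 8 genes of both, 5 were higher than in heart and 5 than in spleen, ORNT1 and NAGS among them. Of all entries, 29% and 15.9% were. Against lung 4 were higher, where 8.47% of all entries were, and 7 were lower than in liver, where 9.29% were. ASSY and ARLY, which turn citrulline into arginine, had 214.5 to 2014 and 101.1 to 249.7 TPM in kidney and were higher than in heart, lung and spleen, by 4.42 to 5.28 and by 2.77 to 3.38, while both were lower than in liver (-2.15 and -1.17, the latter not called with quantile scaling at -0.864). CPSM, which starts the cycle, and OTC were at most 0.3651 and 0.168 TPM in the kidneys and were liver genes (-8.78 and -6.31). ARGI1, the liver arginase, was lower in kidney than in each tissue, with 0.1726 to 1.002 TPM, but by -1.11 against heart, and that call ended without S0242, S0276, S0309, S0326, S0355 or S0384 (-1.161 to -0.972). ARGI2, the mitochondrial arginase, had 15.04 to 228.9 TPM and did not pass against liver (0.46). Of 16 drug-metabolising enzymes, 12 were lower than in liver, where 9.29% of all entries were. Against heart 13 were higher, where 29% of all entries were, and CP4AO was the one higher than in each. CP2E1 was listed at 0 in all 9 kidneys.

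Few genes were lower in kidney than everywhere else, and 5 of the top 10 had all 9 kidneys below all 40 other libraries. Over the 40 lower entries the median of the difference nearest to 0 was -1.26; 11 of them had all 9 kidneys below all other libraries, as had 12 of all entries tested, or 0.0851%. ANGT, angiotensinogen, the substrate of renin, had 0.7267 to 3.967 TPM in kidney, 300.3 to 768.9 in liver, 35.42 to 176.7 in heart, 11.32 to 285.5 in lung and 3.768 to 60.14 in spleen. Its lowest spleen lay within the kidney range, and the difference from spleen was -2.69 ± 0.39. Renin and its substrate were thus on opposite sides of the comparison. CD36, a fatty acid and lipoprotein receptor, had 3.978 to 27.36 TPM against at least 42.19 elsewhere (-2.47 ± 0.29 against spleen, -5.56 against heart). This holds for the sum of its 6 transcripts: that which made up most of the liver value (mean 249.098 TPM there, 83.475% identity) had 1.506 TPM in kidney and 1.518 in heart, and that with the most in kidney had 9.303 there and 0.177 in liver. LNEBL and NEBL, 2 entries for nebulette, an actin-binding protein of heart, were at most 4.883 and 3.457 TPM against at least 8.644 and 6.383. SRBS2, a cytoskeletal adaptor, had 3.702 to 10.66 against at least 13.21, and PLM, phospholemman, the sodium pump regulator of heart, 57.28 to 138.9 against at least 196.3 TPM.

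The rest of the 10 overlapped another tissue. C4BPA, a complement inhibitor, had 0.5541 to 10.11 TPM in kidney and 181.2 to 510.2 in spleen, with -1.85 against heart. ITIH3, a plasma matrix protein, was at most 1.992 TPM in kidney, and ITA5, the fibronectin receptor chain, at most 15.93 (-1.50 against spleen). LYVE1, a hyaluronan receptor of lymphatics, had 0.3096 to 5.43 TPM in kidney and 8.472 to 22.83 in heart. Beyond the 10, XDH, xanthine dehydrogenase, the last step to urate, was listed at 0 to 0.04709 TPM in kidney, below every other library, and had 38.03 to 92.93 TPM in liver. MDR1, a drug efflux pump, had 0.24 to 1.989 TPM in kidney and was lower than in each tissue (-1.26 against spleen), a call that ended with median-ratio rescaling (-0.902), with quantile scaling (-0.819) and with the library of S0235 kept (-0.87). XDH and MDR1 were named after their values were seen.

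**Figure D3:**
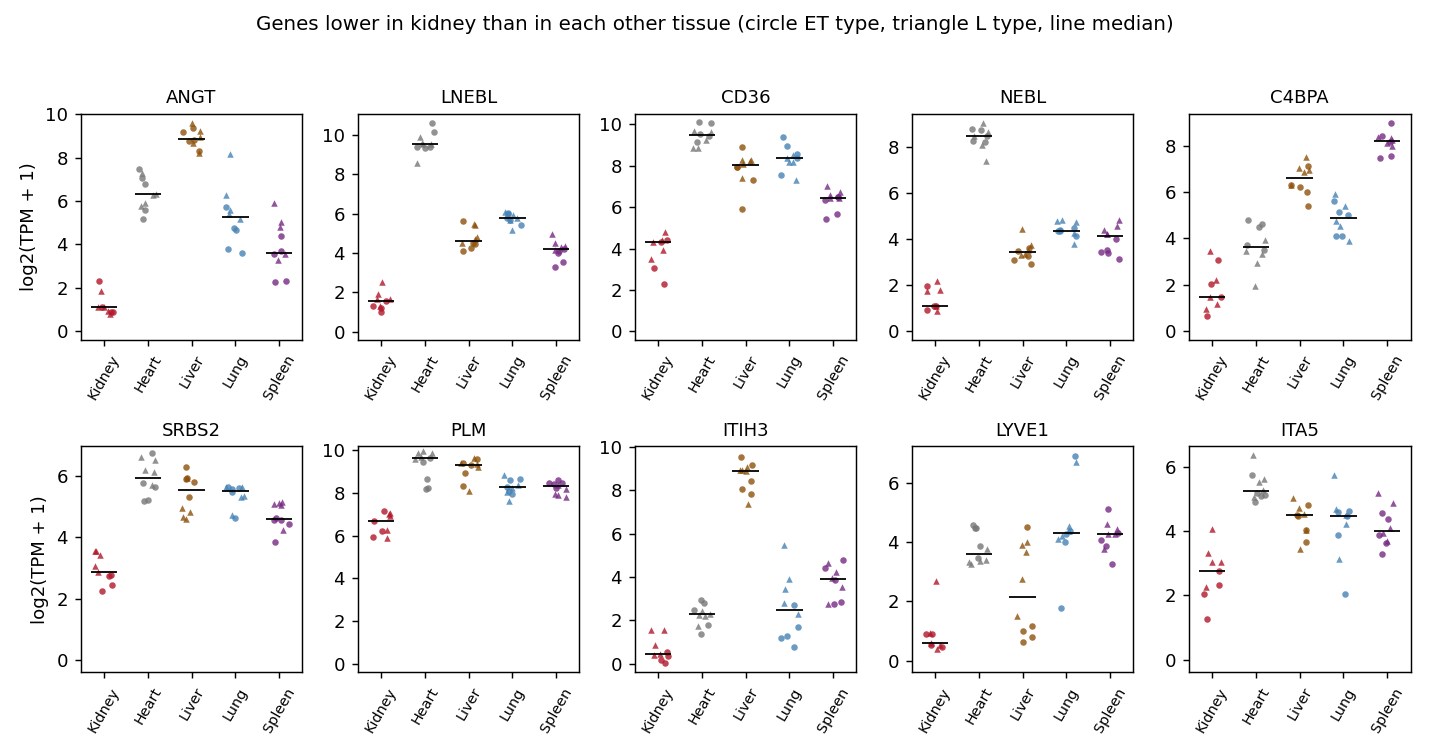
Level of the 10 genes lowest in kidney against each other tissue, in log2(TPM + 1), with 1 point per library, circles for ET type, triangles for L type and a line at the median. For LNEBL, CD36, NEBL, SRBS2 and PLM the 9 kidneys lie below every other library, while ANGT, C4BPA, ITIH3, LYVE1 and ITA5 overlap at least 1 other tissue.

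Genes that mark the other organs were low in kidney. Of all entries, 9.29% were lower than in liver, 8.54% than in heart, 27% than in lung and 15.7% than in spleen. All 18 liver plasma proteins were lower than in liver, and albumin (ALBU) had 0.3391 to 17.67 TPM in kidney and at least 55180 in liver (-14.60 ± 0.43). All 16 heart muscle genes were lower than in heart, led by MLRV (-13.68), TNNT2 (-12.12), MYL3 (-11.43) and MYG (-10.85), with COX8B, outside that list, at -11.54. ACTC, cardiac actin, stood out within that list at a kidney median of 96.85 TPM, higher than in liver (6.46) and lung (5.47). In lung, 14 of 16 epithelial genes were higher than in kidney, led by UTER (-12.33), PSPC (-11.79), SFTPA (-11.24) and PSPB (-11.04), with CBR2 at -12.07. The 11 spleen genes were all lower, with ITAD at -8.41 and HEM0 at -8.80, and the haemoglobin chains HBA and HBB at -10.90 and -9.89. The other way, genes far above heart were ST2A1, PCKGC, AADAT, ATNG and CP2CN, and above liver AADAT, UROM, S6A18, KLK and S22AC. Above lung these were PCKGC, AADAT, ST2A1 and UROM, and above spleen ST2A1, ATNG, AADAT and CP2CN. CP2CN, a P450 entry, may pool relatives; it had 556.1 to 6084 TPM in kidney and was lower than in liver (-2.12).

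Immune and smooth muscle genes were mostly lower in kidney than in spleen. T and NK lymphocyte genes were lower than in spleen in 17 of 18 cases, B lymphocyte and plasma cell genes in 12 of 13 and macrophage genes in 12 of 14. Of all entries, 15.7% were lower than in spleen. No macrophage gene was lower than in each tissue, but 5 were with median-ratio rescaling. C1QC, a complement chain of macrophages, had a median of 36.39 TPM in kidney and 9621 in spleen (-7.78). Antigen presentation genes were lower than in spleen in 12 of 14 cases and higher than in liver in 9, where 27.5% of all entries were higher than in liver. Endothelial genes were higher than in liver in 14 of 15 cases, and in 11 with median-ratio rescaling and 10 with quantile scaling. Against spleen 2 endothelial genes were higher and 1, PLVAP, lower, where 15.9% of all entries were higher and 15.7% lower. PLVAP, a protein of fenestrated endothelium, had a median of 146.7 TPM in kidney, higher than in heart (4.11), liver (2.02) and lung (1.93) and lower than in spleen (-3.50). Smooth muscle genes were all lower than in spleen, 12 of 12. Of tissues that border the kidney, adrenal genes summed to 2.597 to 8.583 TPM per kidney (median 3.23). Heart had a median of 12.71, liver 6.647, lung 8.684 and spleen 13.64. Only 5 of the 15 adrenal genes had an entry, so this sum says little about adrenal tissue. Urothelial genes summed to 10.33 to 56.28 TPM (median 14.6), where heart had a median of 6.514, liver 2.664, lung 112.5 and spleen 89.16. Adipose genes summed to 35.13 to 75.57 TPM (median 64.1), where the medians were 163.8, 19.83, 55.16 and 8.436.

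The 9 kidneys differed among themselves, and more so for kidney genes. The coefficient of variation over the 9 had a median of 45.2% for the 476 entries and 38.5% for all entries tested. Thick ascending limb genes summed to 5750 TPM in S0242 and 6146 in S0385, to 2243 in S0377 and to 437.5 to 890.1 in the other 6. UROM is one of its genes and reached 5281 TPM. Proximal uptake and brush border genes ran from 958.8 TPM in S0326 to 3936 in S0242, and intercalated genes from 529 in S0384 to 2059 in S0385. S0242, the highest in 4 of the 5 proximal lists, was lowest in podocyte genes (330.5) and principal cell genes (468.6). Immune lists were highest in S0276: B lymphocyte genes summed to 986.9 TPM there and macrophage genes to 772.7, against at most 393 and 237.3 in the other 8, and antigen presentation genes to 6343 against at most 2714. Smooth muscle genes summed to 3008 TPM in S0384 and at most 1007 in the others. The part of these lists in the gene differences above was not tested.

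**Figure D4:**
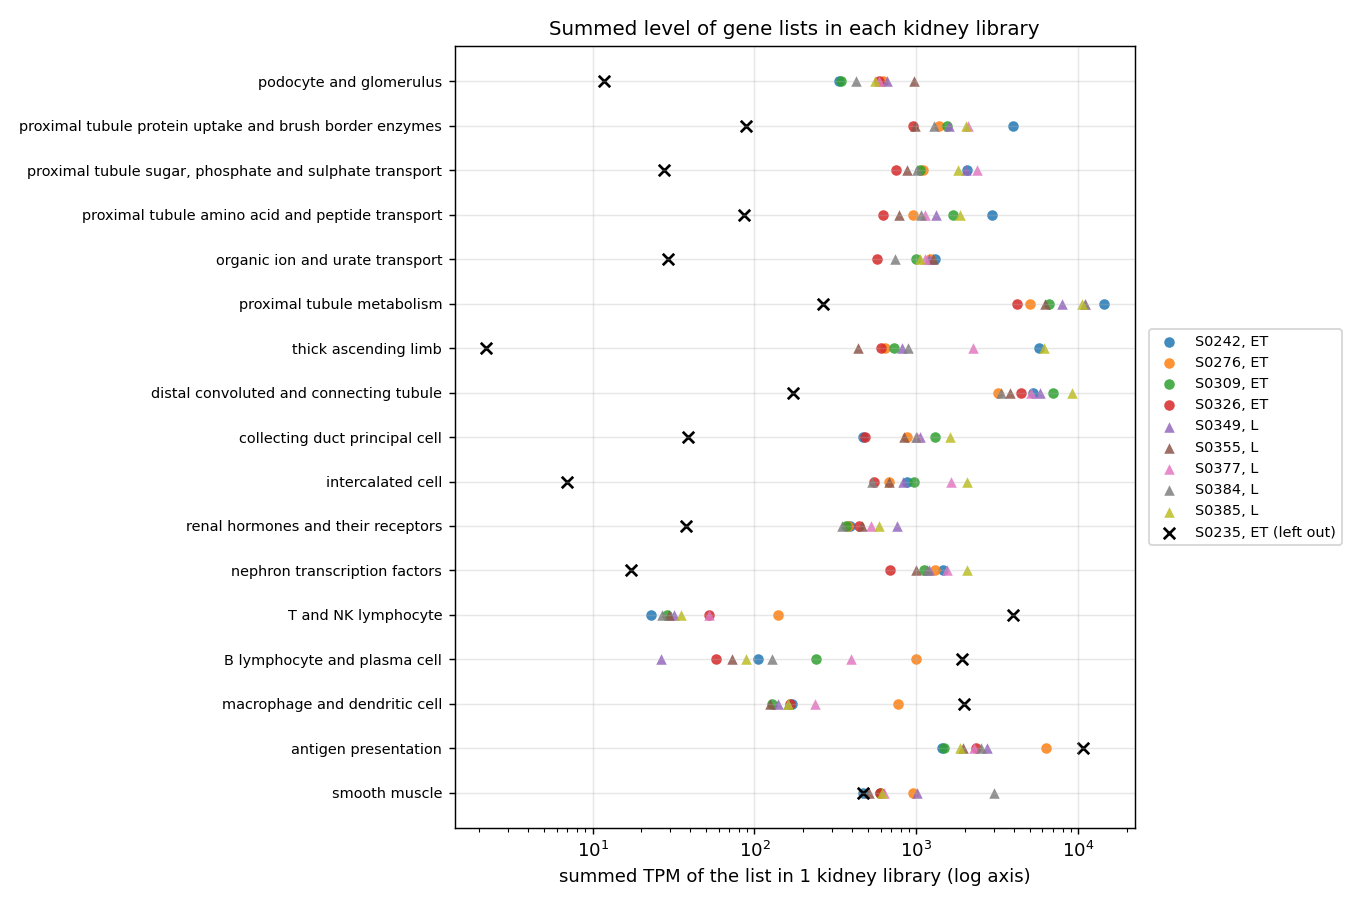
Summed TPM (log axis) of the 12 nephron lists and 5 lists of other cell types in each kidney library, with circles for ET type, triangles for L type and a cross for the library of S0235 that was left out. The cross lies below all 9 kidneys for the 12 nephron lists and above them for T and NK, B lymphocyte, macrophage and antigen presentation lists, and S0242 and S0385 lie apart on the thick ascending limb list.

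Between the types, 4 ET-type and 5 L-type kidneys differed in 1 of 26569 genes by limma, 0.00376%, a transcript with no matched entry that was lower in ET type (adjusted p = 0.0429). Of the 476 entries higher in kidney 0 were called, and 42 (8.82%) had an unadjusted p below 0.05, as had 2312 (8.7%) of all genes tested. EDN2, the vasoconstrictor endothelin-2, had the smallest p among entries, with 0.6842 ± 0.3427 TPM in ET type (SD, n = 4) and 3.548 ± 0.9851 in L type (n = 5), limma adjusted p = 0.278. H3C (-1.81) and CLC14 (-1.07) followed, each with a limma adjusted p of 0.459. The median ET minus L difference was -0.277 over all genes tested and -0.245 over the 476 entries, of which 132 were higher in ET type. Single genes are to be read against that shift.

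Transcripts without a protein match made up most of the 1689 genes, 1213 against 476 entries. Of these 1213, 836 (68.9%) carried the name of a kidney assembly, while kidney assemblies gave 15.9% of the 18750 unmatched transcripts tested. Their median length was 1217 bases, against 1342 for all unmatched ones tested. At the limit of the call, GRB7, MFSD9 and SVIP were just inside, with smallest differences of 1.0006, 1.0085 and 1.0086, and CBARP, FXL21 and HS12A just outside, at 0.9942, 0.9902 and 0.99.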

How the data were processed

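Spleen, lung, liver, kidney and heart of 10 minipigs were sequenced, each as 1 stranded mRNA library from TRIzol-extracted RNA, per the labels. The authors deposited TPM of 57085 assembled transcripts in 50 libraries, each column summing to 1000000; the submitters' processing notes name Trimmomatic 0.36, Salmon 1.10.0 and the build Sscrofa11.1. Read depth is unknown, so no counting intervals are given. The authors' annotation gives a best Swiss-Prot protein hit for 36484 transcripts (63.9%); TPM was summed over transcripts with the same entry, of which 36.8% hold 1 transcript, and transcripts without one were kept singly, which made 35133 genes. Paralogs can share an entry.

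Genes that averaged 1 TPM or more in any of the tissues were tested on log2(TPM + 1), which understates the change of low genes, with limma 3.58.1 (R 4.3.3; mean-variance trend, empirical Bayes) in 1 fit of 49 libraries with tissue and type as terms. Adjusted p-values are Benjamini-Hochberg over all genes tested. The 4 contrasts share the kidney libraries. Kidney types were compared with limma on the 9 kidneys alone, over genes averaging 1 TPM or more there. Values of 1 number per library were compared within animals by exact paired permutation. The script was tested on simulated data.

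Same-numbered libraries come from the same animal; their deviations from the group means had a mean correlation of 0.247 over 36 pairs of tissues, with 34 above 0.1, against -0.0623 for 144 pairs of other animals of the type. Named genes are the 20 higher and 10 lower with the largest smallest difference, the 5 most different each way per tissue, the 10 most abundant, members of the lists, the given markers, and the 3 with the smallest p between types. Some genes that this rule names are not reported here. Members and lists were chosen with earlier results of these data known. The alternatives were pseudocount, filter, scaling, limits, fit, library and animal choices. Python 3.11.15, pandas 2.3.3, numpy 2.4.6, scipy 1.17.1 and matplotlib 3.10.9 were used. Gene positions are from RefSeq for Sscrofa11.1.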

Additional observations from a re-analysis of the deposited data

Results flagged for a closer look

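In the kidney library of S0235, which entered no comparison, T and NK lymphocyte genes summed to 3927 TPM and B lymphocyte and plasma cell genes to 1899 TPM, above the 9 other kidneys. Its macrophage genes summed to 1953 TPM and its podocyte genes to 11.75 TPM, where the others had 124.4 to 772.7 and 330.5 to 960.6 TPM.

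Of 50 groups of values looked at, 3 had a library far from the rest by Dixon's test, and chance flags about 5% of groups. Mitochondrial transcripts held 26.41% of TPM in the liver of S0326. FAME stood at 225.9 TPM in the kidney of S0242. LYVE1, one of the genes lowest in kidney, stood at 5.43 TPM in the kidney of S0384, which was also the kidney with the highest smooth muscle sum, 3008 TPM.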

How the results depend on the processing

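With each animal as a replicate block, 1695 genes were higher in kidney than in each tissue and 56 lower, and the block changed no count over all genes by more than 1.5 times. Among the gene lists it moved 3 counts of genes higher than in heart by more: fatty acid oxidation from 1 to 2, urothelium from 2 to 1 and spleen from 0 to 1; sugar, phosphate and sulphate carriers lower than in spleen moved from 0 to 1. No named gene reversed direction. Median-ratio rescaling gave 6613 genes higher and 4208 lower than in heart, 4209 lower than in liver, 4086 lower than in lung and 83 lower than in each. Quantile scaling gave 5393 higher and 5192 lower than in heart, 5294 and 4513 against liver, 4352 lower than in lung and 127 lower than in each. Against main counts of 10277 and 2143 for heart, 9381 and 2605 for liver, 3067 and 7340 for lung and 6373 and 3465 for spleen, a limit of 2 on the log2 difference left 3564 and 861, 3175 and 1209, 1237 and 2422, and 2280 and 1334, with 642 higher and 4 lower than in each. No minimum difference gave 16758 and 4048, 16472 and 4346, 5040 and 14756, and 11461 and 6662, with 2867 and 236 against each. Single transcripts gave 3479 lower than in heart, 4380 than in liver, 11349 than in lung and 89 than in each, and a pseudocount of 0.1 gave 188 lower than in each. The cause was not tested.

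The difference in mitochondrial share from heart was -0.5275 on a log2 scale (exact p = 0.0469), -11.3 points with the library of S0235 kept (exact p = 0.0273), and -12.53 (without S0355, exact p = 0.0156) to -8.083 (without S0385, exact p = 0.109) with 1 animal left out. Between types, limma called 0 genes with S0235 kept, with median-ratio rescaling and without a filter, 2 with a pseudocount of 0.1, and 0 (without S0349) to 11 (without S0309) with 1 animal left out; in the fit as reported 2312 genes had an unadjusted p below 0.05. Depth is unknown, so low values carry an unknown counting error.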
